A study of Mus musculus with 6 samples.

Results

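The clustered histone genes are the linker (H1) and core (H2A, H2B, H3 and H4) histone genes that lie together in the genome and carry symbols beginning with Hist1h, Hist2h, Hist3h or Hist4h. GENCODE release M21 lists 67 protein-coding genes with such symbols, and 65 of them were among the 49585 genes of the deposited count table. Hist1h2bh and Hist1h2bm were not analysed here. The 65 genes comprised 6 linker and 59 core histone genes, of which 18 were H2A, 16 were H2B, 12 were H3 and 13 were H4. On the assembly GRCm38, 52 lay on chromosome 13 between 21715763 and 23934851, 10 on chromosome 3 between 96219865 and 96270132, 2 on chromosome 11 between 58948920 and 58956830, and Hist4h4 stood alone on chromosome 6.

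The libraries were made from poly(A) RNA of MA9 mouse leukaemia cells of the bone marrow; MA9 commonly stands for the MLL-AF9 fusion. The cells were Gata2 f/f, with loxP-flanked alleles of this blood progenitor transcription factor, or Gata2 KO, also written Gata2 -/-. All 6 samples, 3 of each genotype, were in culture with IL-3, IL-6 and SCF and had received Nutlin, an MDM2 inhibitor that raises p53, at 5 uM for 18 h. The KO samples are also named Cre, so the effect of Cre and that of the deletion cannot be told apart, and cells without Nutlin were not analysed here. The labels do not give the promoter of the Cre or say whether equal numbers share a leukaemia. Below, the libraries are f/f 1 to 3 and those labelled KO 1 to 3. p-values measure only the spread between these samples.

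Most mRNAs end in a poly(A) tail, but the mRNAs of clustered histone genes usually end just after a short stem-loop. The stem-loop binding protein SLBP holds this stem-loop, and the U7 snRNP helps to form the end of the mRNA. These tail-less mRNAs are made mainly in S phase, when new DNA is packed into nucleosomes. Some clustered genes also give longer, polyadenylated transcripts, and the replacement histone genes elsewhere in the genome mostly give ordinary polyadenylated mRNAs. In a library from poly(A)-selected RNA, the reads of clustered histone genes therefore come from the fraction that passed the selection, and are not a measure of all histone mRNA in the cells.

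The stem-loop was searched in the transcript models as the letters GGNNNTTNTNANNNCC, on the sense strand of the 3′ UTR. It was present in 46 of the 67 annotated members, 44 of them in the table, with 21 to 58 bases (median 31) between the stop codon and its first base. Among all 20981 genes with a 3′ UTR of 16 bases or more, 110 (0.524%) held these letters in the first 150 bases, and 46 of those 110 were members. The most common form, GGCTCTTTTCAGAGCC, occurred in 26 members of the classes H1, H2A, H2B and H3. All 7 members with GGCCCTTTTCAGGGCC were H4 genes. The sequences below are from the GENCODE M21 transcripts with the stem-loop in capitals, and are shown for 7 members on which the results turn.
Hist1h1c: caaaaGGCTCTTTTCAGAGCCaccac
Hist1h1e: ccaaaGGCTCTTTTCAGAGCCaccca
Hist1h2ao: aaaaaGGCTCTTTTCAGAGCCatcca
Hist1h2bk: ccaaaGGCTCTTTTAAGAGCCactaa
Hist1h3c: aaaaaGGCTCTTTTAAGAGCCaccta
Hist1h4d: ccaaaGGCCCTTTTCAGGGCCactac
Hist1h4i: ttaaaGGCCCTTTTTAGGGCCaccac

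The models differed in what follows these letters. In 22 members of the table the model ended within 100 bases of the stem-loop, as in Hist1h2bk (30 bases), Hist1h2ao (31 bases) and Hist1h3c (74 bases). In 22 others it ran on, by 840 bases in Hist1h1c, 1153 in Hist1h1e, 770 in Hist1h4d and 330 in Hist1h4i. The models of 6 members had a 3′ UTR without these letters, among them Hist1h2bc and Hist2h2be, and 15 had no 3′ UTR at all. No match says only that these letters are not in the model.

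RefSeq promoter windows (250 bases before to 50 after the start, GRCm38.p6) matched 59 of the 65 members, and were searched on both strands. TATAAA was present in 35 (59.3%) of them and in 13.6% of all promoter windows. CCAAT was present in every matched window of the classes H1, H2A, H2B and H3 and in 3 of 12 H4 windows, against 37.4% of all windows. AAACACA was in 5 of 6 H1 windows and in 7.18% of all. ATGCAAAT was found in 7 of 17 H2A and 5 of 14 H2B windows and in 1.74% of all windows. The windows of 2 linker genes whose levels differed in their spread between libraries are shown, with matches to these motifs in capitals: Hist1h1e at chr13:23622509-23622808 on the minus strand and Hist1h1c at chr13:23738557-23738856 on the plus strand.
Hist1h1e promoter: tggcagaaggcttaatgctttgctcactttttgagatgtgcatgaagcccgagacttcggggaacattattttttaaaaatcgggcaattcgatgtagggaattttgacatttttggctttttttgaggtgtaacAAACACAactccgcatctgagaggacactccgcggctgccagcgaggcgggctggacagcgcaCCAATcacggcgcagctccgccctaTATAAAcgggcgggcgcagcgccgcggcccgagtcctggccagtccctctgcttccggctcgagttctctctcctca
Hist1h1c promoter: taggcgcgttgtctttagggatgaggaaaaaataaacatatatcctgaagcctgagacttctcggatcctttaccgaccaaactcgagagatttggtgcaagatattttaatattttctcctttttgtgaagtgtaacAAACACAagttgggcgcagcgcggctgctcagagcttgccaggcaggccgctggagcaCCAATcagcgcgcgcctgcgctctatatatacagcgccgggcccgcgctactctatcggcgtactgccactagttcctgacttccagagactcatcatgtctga
Both windows hold AAACACA and CCAAT, and the Hist1h1e window also holds TATAAA. A match is a description of the letters and not of a bound site.

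The libraries held 17138687 to 26440960 counts, and 3 counts corresponded to 0.119 to 0.171 CPM, the unit of level used below, which scales counts to the TMM-adjusted library size. f/f 1 and the library labelled KO 2 stood apart in reads that poly(A) selection is meant to remove. The genes Gm26917 and Lars2, which collect reads of ribosomal RNA, summed to 13810, 2362 and 1579 CPM in f/f 1 to 3 and to 1675, 10270 and 2642 CPM in the libraries labelled KO 1 to 3. Gata2 itself measured 33.6, 22.3 and 18.4 CPM in f/f 1 to 3 and 5.44, 43.2 and 4.32 CPM in those labelled KO 1 to 3, so the library labelled KO 2 went against its label and every contrast below is between labels. The leukaemia markers Ptprc, Spi1, Mpo and Hoxa9 were detected in every library, and the 5 B cell markers summed to 1.72 to 6.38 CPM, nearly all from Cd79b, with Pax5 at 0 in every library.

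Clustered histone genes gave 1000 to 4398 counts per library. Of the 65 members, 55 had a count in at least 1 library, 40 passed the filter on low counts and 15 were counted but fell below it. The 10 without a count were Hist1h1t, Hist1h2aa, Hist1h2br, Hist1h4b, Hist2h2aa1, Hist2h2aa2, Hist2h2ab, Hist2h2bb, Hist2h3b and Hist2h3c1. Near-identical copies bear on these counts: 60 members shared at least 1 stretch of 90 bases, the read length, with another transcript, 6 shared every one, and 5 of those 6 had no count. In addition, 24 members overlapped another gene, and the strand setting of the counting is not given. Levels of single H2A, H2B, H3 and H4 genes are therefore uncertain where stretches are shared, while Hist1h1a, Hist1h1b, Hist2h2be and Hist2h4 among the tested members shared none.

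Summed over all 65 members, the level was 207.7, 80.45 and 74.68 CPM in f/f 1 to 3 and 47.71, 238.5 and 131.1 CPM in those labelled KO 1 to 3. The highest libraries were thus 1 of each genotype, and all f/f values lay inside the range of the KO values, at 121 ± 75.2 CPM (SD, n = 3) in f/f and 139 ± 95.6 CPM (SD, n = 3) in KO. Linker genes summed to 48.2, 21.56 and 24.99 CPM in f/f and to 13.6, 50.1 and 36.7 CPM in KO, a log2 ratio of means of 0.08. Core genes summed to 159.5, 58.9 and 49.7 CPM in f/f and to 34.2, 188.4 and 94.4 CPM in KO, a log2 ratio of 0.24. Without f/f 1 the ratios were 0.49 for linker and 0.93 for core genes, and without the library labelled KO 2 they were -0.34 and -0.49, so the direction turned with these libraries. Fewer cells making these transcripts and less of them per cell cannot be told apart in bulk RNA.

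Most members had the same pair of libraries at the top. In 33 of the 40 tested members, f/f 1 and the library labelled KO 2 were the 2 highest. The same held for 547 of the 13744 genes tested (3.98%). This pair of libraries was picked after the values were seen. All 8 H3 genes, 10 of 11 H4, 8 of 10 H2B, 4 of 5 H1 and 3 of 6 H2A genes had this top pair. Among them the highest library exceeded the lowest by 5.84-fold to 159-fold, leaving out 2 genes with a library at 0. The 7 others were Hist1h1c, Hist1h2ae, Hist1h2ao, Hist1h2ap, Hist1h2bc, Hist1h4i and Hist2h2be, with 1.97-fold to 11.4-fold between the highest and the lowest library. The top pair was the same in 22 of the 27 tested members that shared at most 50% of their 90-base stretches, and in 28 of the 32 that overlapped no other gene.

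**Figure D1:**
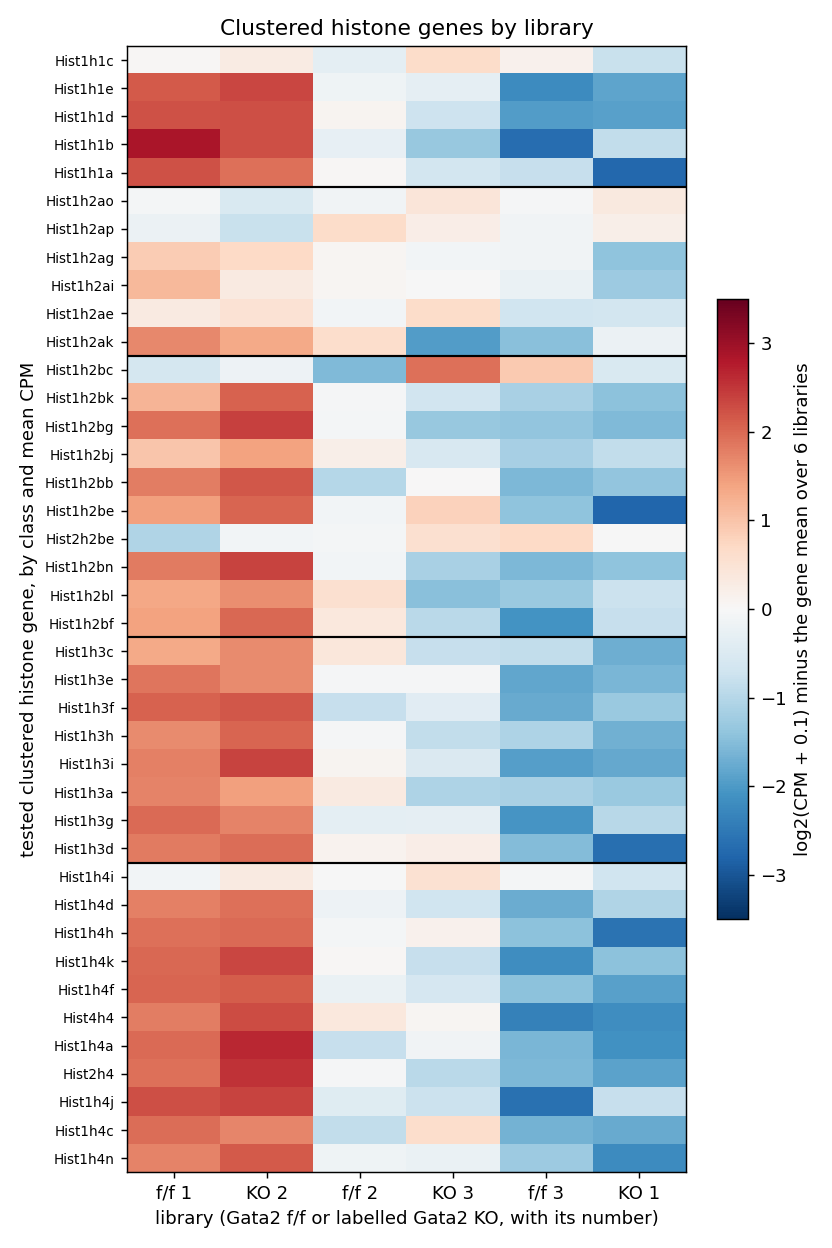
Level of each of the 40 tested clustered histone genes (vertical axis, by class and mean CPM) in each library (horizontal axis, ordered to set f/f 1 beside KO 2), as log2(CPM + 0.1) minus the gene's mean over the 6 libraries. Red marks levels above and blue levels below the gene's mean; the columns f/f 1 and KO 2 are red in most genes, and Hist1h1c, Hist1h2ao, Hist1h2bc and Hist1h4i are among the 7 that break the pattern.

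The top pair was also set beside what the models show. It was found in all 8 tested members with no 3′ UTR in the model, in 11 of 13 whose model ends within 100 bases of the stem-loop, in 13 of 16 whose model runs on, and in 1 of 3 with a 3′ UTR that lacks the letters. A poly(A) signal, AATAAA or ATTAAA, stood in the last 60 bases of 10 tested members, and 6 of these had the top pair. Of the 30 without such a signal, 27 had it. Hist1h1c, Hist1h2ae, Hist1h4i and Hist2h2be held a signal and did not have it. The 40 tested genes outside the family with the same stem-loop letters included 2 with this top pair (5%).

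Linker histones bind the DNA between nucleosomes. Of the 5 tested linker genes, 1 varied less between libraries and 4 varied steeply. Hist1h1c (chr13:23738808-23740367, plus strand) measured 22.2, 16.9 and 23.9 CPM in f/f 1 to 3 and 12.4, 26.1 and 33.8 CPM in those labelled KO 1 to 3. Its groups overlapped, with 21.0 ± 3.65 and 24.1 ± 10.8 CPM (SD, n = 3), and its log2 fold change of KO over f/f was 0.20 ± 0.38 (SE). Hist1h1e (chr13:23620629-23622558, minus strand), whose last bases overlap the model of Hist1h2be, measured 7.58, 1.47 and 0.28 CPM in f/f and 0.38, 8.57 and 1.30 CPM in KO. Its lowest libraries rested on 7 counts in f/f 3 and 8 counts in KO 1, the latter with an exact 95% Poisson interval of 3.45 to 15.8 counts that covers counting error only.

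Hist1h1d measured 7.52, 1.65 and 0.32 CPM in f/f and 0.33, 7.59 and 0.88 CPM in KO. Hist1h1b measured 6.32, 0.62 and 0.040 CPM in f/f and 0.38, 4.12 and 0.25 CPM in KO. Hist1h1a measured 4.56, 0.94 and 0.48 CPM in f/f and 0.048, 3.69 and 0.55 CPM in KO. Each of these genes, Hist1h1e included, was highest in f/f 1 and in the library labelled KO 2, with the other 4 libraries at 1.65 CPM or less. Hist1h1t, known as a testis linker histone, had no count. Hist1h1c gave 46.1%, 78.3% and 95.5% of the linker counts in f/f 1 to 3 and 91.6%, 52.1% and 91.9% in those labelled KO 1 to 3. Without it, the linker genes summed to 26.0, 4.68 and 1.11 CPM in f/f and to 1.15, 24.0 and 2.98 CPM in KO, so the spread between libraries was wider than with it.

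**Figure D2:**
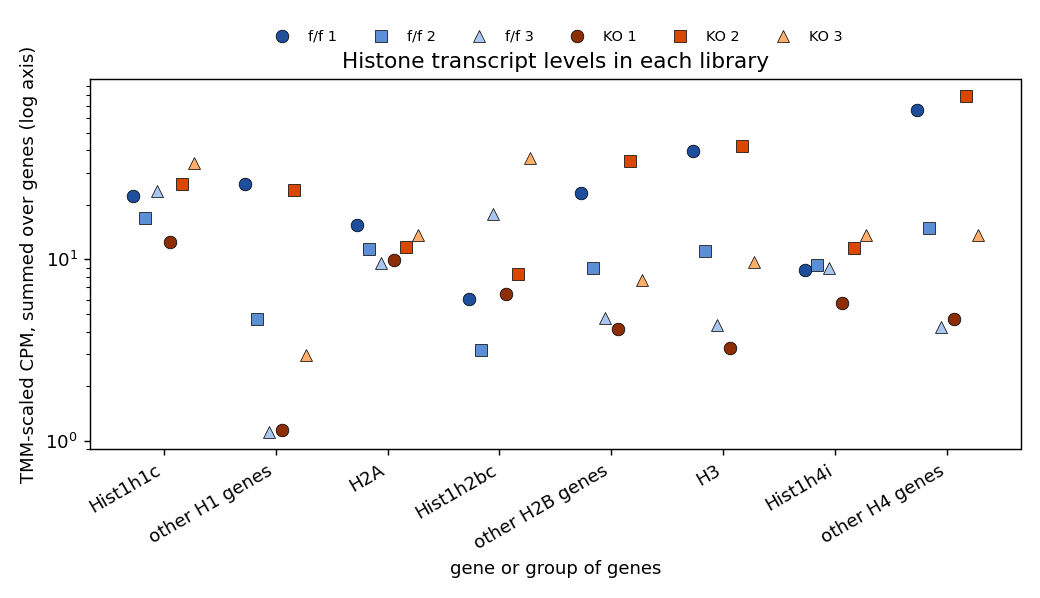
Summed level (vertical axis, TMM-scaled CPM on a log axis) of single genes and of the rest of each class (horizontal axis), 1 point per library, coloured and shaped by library. Hist1h1c, H2A and Hist1h4i span narrower ranges than the rest. The other H1, H2B, H3 and H4 genes are highest in f/f 1 and KO 2, and Hist1h2bc is highest in KO 3 and f/f 3.

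H2A and H2B form the dimers at the sides of the nucleosome. The H2A sum varied least of the classes, at 15.5, 11.5 and 9.59 CPM in f/f and 9.97, 11.7 and 13.7 CPM in KO. Hist1h2ao, the H2A gene of highest level, measured 4.62, 4.46 and 4.74 CPM in f/f and 6.25, 3.36 and 6.63 CPM in KO. Hist1h2ap measured 1.65, 3.03 and 1.75 CPM in f/f and 2.24, 1.08 and 2.27 CPM in KO. In both genes the library labelled KO 2 was the lowest of the 6, the reverse of most members. Their models share 92.8% and 92.4% of their 90-base stretches with other transcripts, so reads could be split between them and other copies. Hist1h2ai, of which 88.8% is shared, had the lowest log2 fold change of the family, -0.69 ± 0.66 (SE), which was not past the threshold.

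Among H2B genes, Hist1h2bc (chr13:23684199-23692908, plus strand) had other libraries at the top. It measured 6.04, 3.16 and 17.8 CPM in f/f 1 to 3 and 6.44, 8.30 and 36.1 CPM in those labelled KO 1 to 3, so it was highest in both libraries numbered 3. It gave 78.8% and 82.4% of the H2B counts in f/f 3 and KO 3, and 19.3% to 61.1% in the other 4 libraries. Hist2h2be, the other H2B gene with a 3′ UTR that lacks the stem-loop letters and enough counts to test, measured 0.63, 1.34 and 2.35 CPM in f/f and 1.38, 1.30 and 2.14 CPM in KO, and was also highest in those numbered 3. By contrast, Hist1h2bk measured 3.76, 1.56 and 0.68 CPM in f/f and 0.52, 7.05 and 0.97 CPM in KO. The H2B genes without Hist1h2bc summed to 23.1, 8.999 and 4.78 CPM in f/f and to 4.10, 34.7 and 7.72 CPM in KO, with the top pair of most members.

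Markers of mature myeloid cells also differed between the libraries. The 10 neutrophil markers, all tested and none at 0, summed to 290, 583 and 2049 CPM in f/f and to 1886, 624 and 3759 CPM in KO. The 10 monocyte and macrophage markers, likewise all tested and none at 0, summed to 275, 254 and 2007 CPM in f/f and to 713, 610 and 2621 CPM in KO. Both sums were highest in KO 3, and the monocyte and macrophage sum was next highest in f/f 3, as Hist1h2bc was. The neutrophil sum was nearly as high in KO 1 as in f/f 3. S100a8, S100a9, Cd177, Ngp and Cxcr2 were higher in KO 1 than in f/f 3. The other neutrophil markers, Ltf, Camp, Mmp8, Mmp9 and Lcn2, were lower in KO 1 than in f/f 3. Hist1h2bc measured 6.44 CPM in KO 1 and 17.8 CPM in f/f 3. Within number 1 the log2 ratio of KO to f/f was 2.70 for the neutrophil sum and 0.09 for Hist1h2bc. Their part in the level of Hist1h2bc was not tested.

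H3 and H4 form the tetramer at the centre of the nucleosome. The H3 sum was 39.7, 11.1 and 4.34 CPM in f/f and 3.24, 42.4 and 9.70 CPM in KO. Hist1h3c measured 7.81, 4.05 and 1.63 CPM in f/f and 0.86, 9.76 and 1.68 CPM in KO. Hist1h3e measured 8.32, 2.14 and 0.56 CPM in f/f and 0.67, 7.16 and 2.14 CPM in KO. All 8 tested H3 genes, Hist1h3f and Hist1h3h among them, were highest in f/f 1 and the library labelled KO 2.

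Of the H4 genes, which encode almost the same protein, Hist1h4i (chr13:22040636-22041362, minus strand) measured 8.77, 9.31 and 8.95 CPM in f/f and 5.73, 11.6 and 13.6 CPM in KO. The f/f values, at 9.01 ± 0.27 CPM (SD, n = 3), lay inside the range of the KO values, at 10.3 ± 4.09 CPM. Hist1h4d measured 10.9, 2.76 and 0.88 CPM in f/f and 1.48, 12.2 and 1.89 CPM in KO. Hist1h4h measured 8.60, 2.09 and 0.76 CPM in f/f and 0.29, 9.06 and 2.48 CPM in KO, and Hist1h4k had the same top pair. Without Hist1h4i the H4 genes summed to 66.4, 14.9 and 4.26 CPM in f/f and to 4.68, 79.8 and 13.6 CPM in KO. Hist1h4i was thus near level in f/f. Over the 6 libraries it ran from 5.73 to 13.6 CPM, while the rest of its class spanned 18.7-fold.

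Hist1h1c, Hist1h2bc and Hist1h4i, chosen after their values were seen, together gave 17.8%, 36.5% and 67.8% of the histone counts in f/f 1 to 3 and 51.5%, 19.3% and 63.7% in those labelled KO 1 to 3. Per kilobase of model and averaged over the 6 libraries, Hist1h1c had the highest level, at 14.5 CPM per kb, followed by Hist1h4i at 13.3, Hist1h4k at 12.2, Hist1h2bc at 11.2 and Hist1h2ao at 10.4. The order among these 5 genes was not stable between libraries. Hist1h2bc was below Hist1h1c in f/f 2, at 2.74 against 10.8 CPM per kb. It was above Hist1h1c in KO 3, at 31.2 against 21.6 CPM per kb. Before division by model length, Hist1h4k ranged from 0.36 to 10.4 CPM. The 62 other members summed to 170.7, 51.1 and 24.1 CPM in f/f and to 23.1, 192.5 and 47.6 CPM in KO.

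The 15 members counted but below the filter included genes with very few counts. Hist1h2an had 1 count in f/f 1, 1 in the library labelled KO 2 and 0 in the others. The top pair was found in 11 of the 15 and not in 4, without a share over all genes below the filter to set beside it. Hist1h3b, with more counts, measured 3.53, 0.22 and 0.28 CPM in f/f and 0.19, 2.87 and 0.13 CPM in KO, the pattern of the tested H3 genes. Hist2h3c2 measured 0.11, 0.045 and 0.44 CPM in f/f and 0.095, 0.49 and 2.31 CPM in KO. Hist3h2a measured 0.11, 0.22 and 0.68 CPM in f/f and 0.048, 0.16 and 1.47 CPM in KO. Hist2h3c2 and Hist3h2a were highest in KO 3, and most of their other values lie near the level of 3 counts.

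The question of whether Gata2 KO cells differ from Gata2 f/f cells in these transcripts was addressed with edgeR's quasi-likelihood test over all 13744 genes. No gene passed an adjusted p of 0.05 (0% of those tested), and so none of the 40 members was called higher or lower. At an unadjusted p under 0.05, edgeR gave 171 genes (1.24%) and 0 members. DESeq2 called 7 genes (0.0513%) and limma voom 0 (0%), with 0 members in each. No member had KO and f/f values that did not overlap, against 363 genes (2.64%) that were wholly higher and 382 (2.78%) that were wholly lower in KO.

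The log2 fold changes of the members ran from -0.69 to 0.91, with a median of 0.15, and 27 of 40 were above 0. Over all genes tested the median was 0.02, and 7220 of 13744 were above 0. Of the linker genes 2 of 5 were above 0 (median -0.10), and of the core genes 25 of 35 (median 0.17). Hist1h2bc had the highest fold change, 0.91 ± 0.84 (SE), with means of 8.996 ± 7.75 CPM in f/f and 16.9 ± 16.6 CPM in KO (SD, n = 3). Steeply varying genes had wide errors, as in Hist1h1e with 0.14 ± 1.33 and Hist1h4k with 0.19 ± 1.29 (SE), while Hist1h4i (0.19 ± 0.36), Hist1h1c and Hist1h2ao (0.24 ± 0.36) had the narrowest. A change of 2-fold in most members thus lies within 1 SE and was not detectable with these libraries.

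Single libraries set the direction. Without f/f 1, 38 of 42 tested members were above 0, with a median log2 fold change of 1.44. Without the library labelled KO 2, 8 of 41 were above 0, with a median of -1.52, and without f/f 3 it was 10 of 43, with a median of -0.36. Without both f/f 1 and the library labelled KO 2, 14 of 33 were above 0, with a median of -0.07. edgeR called 0 members in each of these fits.

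**Figure D3:**
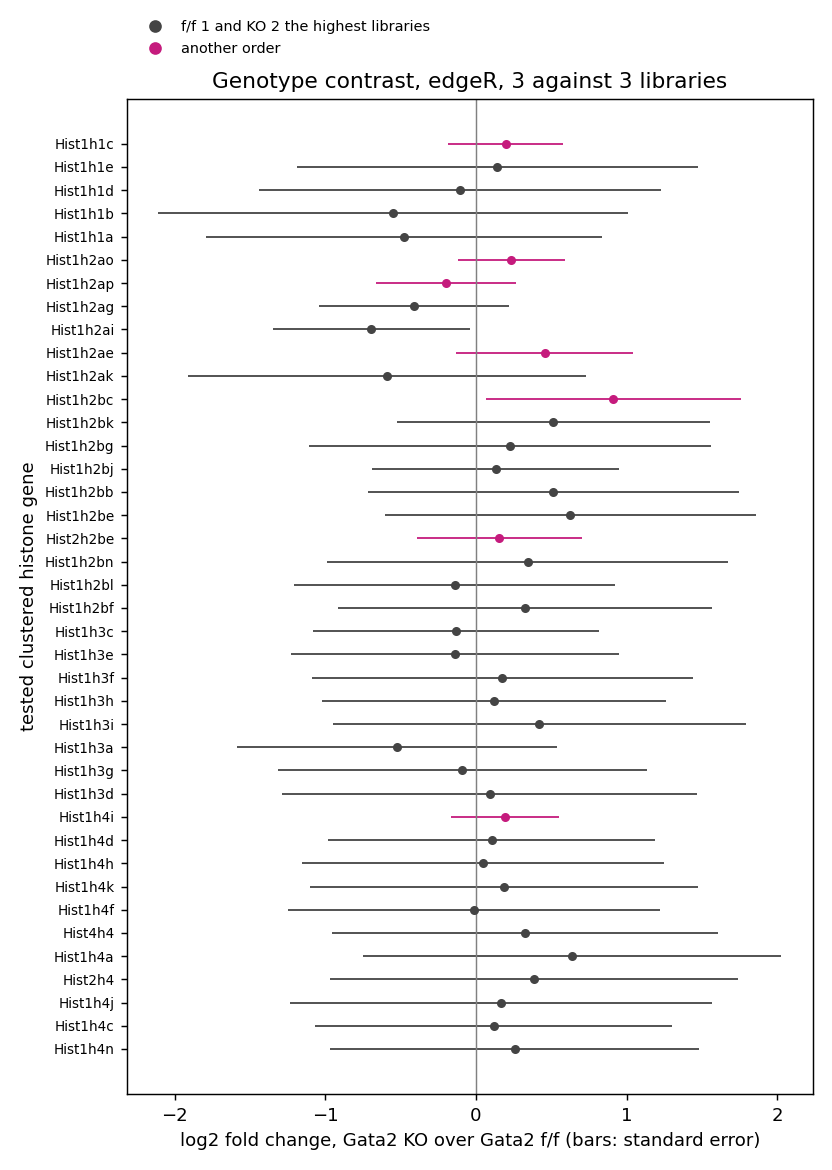
Log2 fold change of KO over f/f (horizontal axis) with its standard error (bars) for the 40 tested members (vertical axis), from edgeR on 3 against 3 libraries. Values run from -0.69 to 0.91 and the shortest bars are those of Hist1h2ao, Hist1h4i and Hist1h1c; magenta marks the 7 genes in which f/f 1 and KO 2 are not the 2 highest libraries.

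Compared within equal numbers, the summed level of all members was lower in KO for number 1, with a log2 ratio of -2.12, and higher in KO for numbers 2 and 3, with 1.57 and 0.81. KO was above f/f in 4 of 40 members within number 1, in 37 within number 2 and in 37 within number 3. Over all genes tested the counts were 7226, 7436 and 6830 of 13744. With the number as a replicate block, edgeR called 0 genes (0%), and Hist1h2bc was the member of lowest unadjusted p, 0.0273 at a log2 fold change of 0.84, the only 1 of 40 under 0.05 against 1473 genes (10.7%). KO exceeded f/f by a log2 difference of 0.09, 1.37 and 1.02 within numbers 1, 2 and 3 for Hist1h2bc. DESeq2 with the block called 222 genes (1.75%) and 0 members, 4 of which had no adjusted p.

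Between the numbers, edgeR's F test called 1249 genes (9.09%) and 1 member, Hist1h2bc, with an adjusted p of 0.0217. That count changed when single libraries were left out. Each such fit leaves a single library of a number. The range of these counts is therefore given only with the processing settings below, and no conclusion is drawn from it.

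Other transcripts without a poly(A) tail had the same top pair of libraries as most members. Rpph1, the RNA of ribonuclease P, measured 302, 54.2 and 16.7 CPM in f/f and 16.9, 398 and 76.8 CPM in KO. Rn7sk, which holds the elongation factor P-TEFb inactive, measured 85.3, 11.5 and 6.49 CPM in f/f and 2.62, 80.9 and 7.64 CPM in KO. All 3 tested genes of the 8 listed RNAs without a tail, and both tested genes with ribosomal RNA reads, were highest in f/f 1 and the library labelled KO 2. For the third, Rn7s2, this rested on few counts, with 15 in the library labelled KO 2 and 14 in f/f 2. Their part in the level of the histone genes was not tested.

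The listed genes of histone mRNA processing, replacement histones, chaperones, replication and mitosis did not have this top pair. Of the 18 tested genes of histone mRNA transcription and 3′ end formation, 10 replacement histones, 21 histone chaperones, 30 DNA replication genes and 16 mitosis genes, 0 were highest in f/f 1 and the library labelled KO 2. Over all genes tested this held for 547 of 13744 (3.98%), so lists of these sizes would hold few or none at that share. The replication genes summed to 5760, 6080 and 4284 CPM in f/f and to 5557, 5757 and 3050 CPM in KO. They were lowest in the libraries numbered 3, and f/f 1 and the library labelled KO 2 did not stand out.

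Slbp, which encodes the stem-loop binding protein, measured 80.0, 91.3 and 67.6 CPM in f/f and 72.8, 81.3 and 55.6 CPM in KO, with a log2 fold change of -0.19 ± 0.24 (SE). Npat, a co-activator of histone gene transcription, measured 42.4, 32.1 and 19.9 CPM in f/f and 34.8, 31.2 and 8.27 CPM in KO. Zfp473, a zinc-finger protein of histone pre-mRNA processing, stayed between 0.72 and 2.23 CPM. None of these 3 genes passed the test, and in the whole list 5 of 18 fold changes were above 0, with a median of -0.11.

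**Figure D4:**
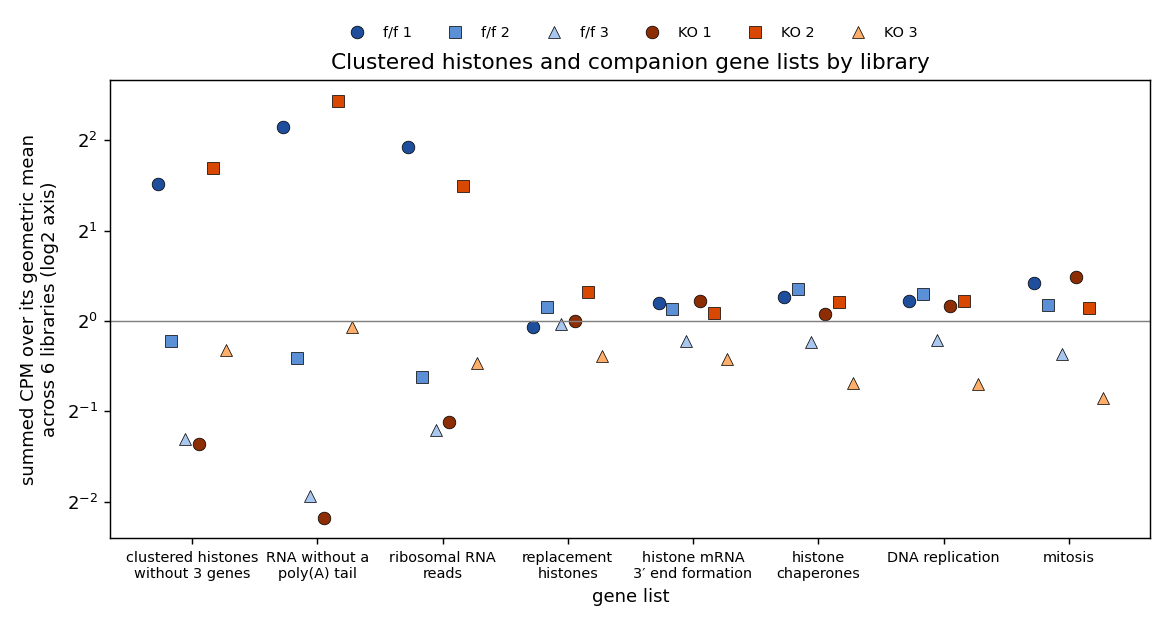
Summed CPM of gene lists (horizontal axis) in each library, divided by the list's geometric mean over the 6 libraries (vertical axis, log2 axis; 1 point per library). The histone genes other than Hist1h1c, Hist1h2bc and Hist1h4i, the RNAs without a tail and the ribosomal RNA reads are highest in f/f 1 and KO 2, and the replacement histone, histone 3′ end, chaperone, replication and mitosis lists span narrow ranges.

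The replacement and variant histones, most of which give polyadenylated mRNAs, summed to 3289, 3844 and 3366 CPM in f/f and to 3451, 4315 and 2622 CPM in KO. H2afz, a variant of H2A found at promoters, measured 1169, 1659 and 1112 CPM in f/f and 1131, 1794 and 852 CPM in KO. Of 10 tested, 6 had a fold change above 0, with a median of 0.06, and none passed the test. H1f0, a linker histone of resting and differentiating cells, measured 42.9, 60.8 and 78.1 CPM in f/f and 82.8, 99.6 and 100.3 CPM in KO. Its groups did not overlap, with KO higher, as in 363 of all 13744 genes tested (2.64%). Its log2 fold change was 0.64 ± 0.27 (SE), and edgeR gave an unadjusted p of 0.0475 and an adjusted p of 0.9998. H2afx, a replacement H2A gene whose model holds the stem-loop letters, measured 74.0, 56.2 and 70.4 CPM in f/f and 71.4, 69.0 and 57.4 CPM in KO. Its spread between libraries was narrow beside that of the clustered H2B, H3 and H4 genes.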

How the data were processed

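RNA from 6 samples, 3 per genotype, was selected for poly(A) and sequenced as paired-end reads of 90 bases, per the labels' protocols. The authors deposited 1 table of raw gene counts (whole numbers) under Ensembl identifiers. Per the submitters' processing notes, HTSeq, kallisto, DESeq2 and the build mm10 were used. Not given in the sources used here were the tool behind the counts, the annotation, the treatment of multi-mapping reads and the strand setting. Of the 49585 identifiers, 49326 matched GENCODE M21 without the version, and symbols, models and coordinates came from it; promoter windows came from RefSeq. No column was left unused, and no libraries were duplicates (chi-square per degree of freedom over genes at least 35.5).

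Library totals were 17138687 to 26440960 counts, of reads without molecular identifiers, and intervals cover counting error only. filterByExpr (minimum count 10) kept 13744 genes; a clustered histone gene could pass through the libraries in which it is high. Library sizes were scaled by TMM (factors 0.901 to 1.06), and CPM values were computed from the deposited counts. The contrast of KO with f/f used the quasi-likelihood test of edgeR without a block, with Benjamini-Hochberg adjustment over all genes tested and a threshold of 0.05. Log2 fold changes are KO over f/f, and their standard errors were derived from the F statistics. A prior count of 2 entered only the log2 CPM values, used for single genes within equal numbers and for the correlations. R 4.3.3, edgeR 4.0.16, limma 3.58.1 and DESeq2 1.42.0 were used, and the fits were tested on simulated data. Summed levels were described without a test.

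The pairing of equal numbers was checked by correlating each library's log2 CPM deviations from its group mean. The correlation was 0.29, 0.55 and 0.65 for numbers 1, 2 and 3, all over 0.1. It was also 0.46 between f/f 1 and the library labelled KO 2, and 0.104 between f/f 2 and KO 1. Libraries of unlike number thus also passed 0.1, and this check cannot decide whether the numbers pair the samples. The replicate block was fitted as an alternative. The fold changes and errors given are from the unpaired fit unless the block is named. What a number stands for is not in the labels.

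The members and all gene lists were chosen with earlier results of these data known. The genes named were members past the threshold in any fit, the 6 members of lowest p, the 4 of highest mean CPM in each class, Slbp, Npat, Zfp473, Gata2, replacement histones and the 2 genes of lowest p in each companion list; the other genes named were chosen after their values were seen. The alternatives were other scaling, filters and tools, the replicate block, omission of libraries, and omission of 4 genes listed for ribosomal RNA reads, of which Gm26917 and Lars2 held counts.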

Additional observations from a re-analysis of the deposited data

How the results depend on the processing

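No setting called a clustered histone gene between the genotypes: the count was 0 of the tested members with DESeq2's size factors, upper-quartile factors, library totals, no filter, a floor of 1 on the mean CPM, limma voom, DESeq2, the replicate block and every omission of libraries. The count over all genes, 0 in edgeR, was 7 with DESeq2, 222 with DESeq2 and the replicate block, and 54 with the block without the library labelled KO 2. Gata2 then had a log2 fold change of -2.36 in edgeR. The library left out was the KO-labelled library of highest Gata2, so this value follows from the choice and is not a test. The count of members called between the numbers, 1 in edgeR, was 4 without the filter and 3 with DESeq2, and ran from 0 to 33 when each library was left out. Each of these omissions leaves a single library of a number, so no conclusion is drawn from that range. The fold changes of single genes, none past the threshold, changed sign as follows, and the cause was not tested. With library totals alone they were Hist1h4h -0.033, H3f3b -0.043 and Gm26917 -0.024, and without the filter H3f3b -0.028. With limma voom they were Hist1h1b 0.41, Hist1h2bk -0.029, Hist1h2bg -0.37, Hist1h3e 0.090, Hist1h3h -0.37, Hist1h4h -0.28 and Zfp473 0.016. With the replicate block, which changed no call, they were Hist1h1d 0.13, Hist1h1b 0.22, Hist1h2bg -0.19, Hist1h3e 0.31, Hist1h3h -0.17, Zfp473 0.0027 and Lars2 0.61, and with DESeq2 and the replicate block Hist1h1d 0.26, Hist1h1b 0.76, Hist1h2bg -0.25, Hist1h3e 0.39, Hist1h3h -0.21 and Lars2 0.59. With the block but without the library labelled KO 2 they were Hist1h1c -0.17, Hist1h1e -1.17, Hist1h2ap 0.40, Hist1h2bk -1.17, Hist1h2bg -2.12, Hist1h2bj -0.69, Hist1h3f -1.15, Hist1h3h -1.70, Hist1h4d -0.97, Hist1h4h -1.36, Hist1h4k -1.20, Zfp473 0.17, H3f3b -0.0041, Rpph1 -0.98 and Gm26917 -0.80. Without both libraries numbered 3 they were Hist1h2ae -0.12, Hist1h4i -0.092, Hist1h1c -0.048, Hist1h1e -0.018, Hist1h4d -0.0026, Hist1h4h -0.20, H2afz 0.017, H2afx 0.079, H2afj -0.070 and Cenpa -0.13. Without f/f 1 and the library labelled KO 2, an alternative chosen after seeing the data, they were Hist1h1e -0.060, Hist1h2bk -0.59, Hist1h2bj -0.44, Hist1h3e 0.050, Hist1h3h -0.84, Hist1h4d -0.12, Hist1h4h -0.053, Hist1h4k -0.46, H2afx 0.017 and H3f3b -0.11. Leaving out each library in turn gave the ranges Hist1h1b -2.85 to 2.20, Hist1h1c -0.14 to 0.49, Hist1h1d -2.36 to 1.54, Hist1h1e -1.87 to 1.93, Hist1h2ap -0.41 to 0.13, Hist1h2bc -0.30 to 1.86, Hist1h2bg -2.56 to 1.69, Hist1h2bj -1.03 to 0.69, Hist1h2bk -1.41 to 1.31, Hist1h3c -1.82 to 0.49, Hist1h3e -1.38 to 1.26, Hist1h3f -1.64 to 2.27, Hist1h3h -1.99 to 1.24, Hist1h4d -1.52 to 1.47, Hist1h4h -1.46 to 1.43, Hist1h4i -0.074 to 0.46 and Hist1h4k -2.005 to 1.71 for members. For other genes they were Cenpa -0.14 to 0.19, H2afj -0.13 to 0.54, H2afx -0.13 to 0.049, H2afz -0.41 to 0.14, H3f3b -0.12 to 0.15, Npat -0.68 to 0.048, Zfp473 -0.43 to 0.33, Rn7s2 -3.13 to 0.044, Rpph1 -1.42 to 2.17, Gm26917 -0.74 to 0.97 and Lars2 -2.23 to 1.62. Without Hist1h1c the linker log2 ratio of means was -0.18, and without Hist1h2bc and Hist1h4i the core ratio was 0.14, both chosen after seeing the data. With library totals alone the linker ratio was -0.0079. Depth limits the steep members most, since many held fewer than 10 counts in their lowest library.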

Other observations

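Deviations of the 40 tested clustered histone genes from their group means in log2 CPM correlated at 0.88 between f/f 1 and the library labelled KO 2, and at -0.59, -0.02 and 0.70 between the libraries sharing number 1, 2 and 3. These are correlations across genes that share libraries and sequence, given as a description. E2f2, a transcription factor of the S phase programme, measured 46.7, 38.1 and 57.5 CPM in f/f 1 to 3 and 112, 70.3 and 68.4 CPM in those labelled KO 1 to 3, so its groups did not overlap. Its log2 fold change was 0.82 ± 0.29 (SE), and no gene passed edgeR's adjusted threshold. Among the companion lists, Tonsl, a chaperone of new histones at replication forks, also had groups that did not overlap. It measured 104, 108 and 116 CPM in f/f and 124, 117 and 184 CPM in KO. Groups wholly higher in KO were found in 1 of 30 replication genes and 1 of 21 histone chaperones. Over all genes tested they were found in 363 of 13744 (2.64%). H2afy2, a macroH2A variant, measured 11.6, 9.67 and 2.47 CPM in f/f and 3.29, 6.62 and 2.35 CPM in KO, with a log2 fold change of -0.95 ± 0.63 (SE). Of the replication genes 7 of 30 had a fold change above 0 (median -0.15), of the mitosis genes 4 of 16 (median -0.10) and of the histone chaperones 7 of 21 (median -0.12), against a median of 0.02 over all genes tested.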
